A study of Mus musculus with 4 samples.

Results

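Genes of the macrophages that surround erythroblasts were measured in osteoclast progenitors of mouse bone marrow with and without Ptip. The 10 genes were chosen by name as surface markers and iron-recycling genes of these macrophages (Adgre1, Vcam1, Cd163, Mrc1, Spic, Hmox1, Slc40a1, C1qa, Axl and Mertk), and all 10 were found among the 18276 genes of the table. Poly(A) RNA came from cells sorted out of fresh bone marrow as negative for B220, CD3 and Mac-1 and positive for CD115. In 2 libraries the mice carried floxed alleles of Ptip (gene symbol Paxip1) with the Mx-1Cre transgene (Ptip_KO), and in 2 libraries they carried Mx-1Cre with wild-type Ptip (WT). Mx-1Cre is driven by an interferon-inducible promoter that is active in blood cells and in other tissues, so the deletion is not limited to macrophages. All mice were on a B6;129 background. Age, the inducing agent and the number of animals behind a library are not given in the sources used here, and p-values therefore measure only the spread between these libraries.

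In marrow, maturing erythroblasts cluster around a central macrophage that holds them by adhesion molecules, engulfs the nuclei they expel and returns the iron of old red cells to the plasma. Haem taken up by such a macrophage is opened by haem oxygenase, and the freed iron leaves the cell through ferroportin. In mice, the transcription factor SPI-C is needed for the iron-recycling macrophages of spleen and marrow. These cells usually carry F4/80 and VCAM-1 on their surface. The sort kept CD115-positive progenitors, so the genes are described here in a population that was not isolated as macrophages.

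Each library held between 67592972 and 77773478 reads, and levels are given in CPM, reads scaled by the authors to an effective library size. Paxip1 had 5.10 and 3.73 CPM in Ptip_KO, against 106 and 103 CPM in WT. Of the genes used in the sort, Csf1r, which encodes CD115, had 825 and 782 CPM in Ptip_KO, against 677 and 606 CPM in WT, and Cd3e reached at most 0.190 CPM in any library. Itgam, a subunit of Mac-1, had 39.2 and 35.1 CPM in Ptip_KO, against 42.1 and 39.6 CPM in WT, so its transcript was present in the sorted population. Whether it came from Mac-1-negative cells or from positive cells that passed the sort was not tested. WT replicate 2 differed from the other 3 libraries in Xist, the RNA that silences an X chromosome in female cells (298 CPM, against 0.0428 to 0.0814 CPM), and in the Y-linked gene Ddx3y (0.101 CPM, against 69.1 to 89.6 CPM). These sex-linked transcripts are thus not balanced between the genotypes, and values without WT replicate 2 are given for some genes and lists. A fit with a library left out has a single library in that genotype, so its spread comes from the other genotype only. Adjusted p-values and counts from such fits show only how a result moves with that library and are not calls.

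All 10 genes had a lower mean in Ptip_KO than in WT, from 1.38-fold lower for Spic to 23.2-fold lower for C1qa. In 8 of the 10 genes, both Ptip_KO libraries lay under both WT libraries, which was so for 25.2% of all genes in the table and for 27.3% of the tested ones. Vcam1 and Hmox1 were the exceptions. The limma test on log2(CPM + 1) took the 12357 genes that reached 1 CPM in 2 or more libraries, and its p-values were adjusted over all of them (Benjamini-Hochberg, threshold 0.05). Of the 10 genes, 8 could be tested, 5 fell (Adgre1, C1qa, Axl, Mrc1 and Cd163) and none rose, while 6.29% of all tested genes passed, 3.86% lower and 2.43% higher. The 10 genes were chosen with earlier results of these data known, so this contrast is a description and no independent test. On recovered reads, edgeR found 5 of the 8 lower, beside 3.37% of all tested genes, and DESeq2 found 6 lower, beside 9.11%. C1qa entered the test only because of its level in WT and so had to differ, whereas the other 7 tested genes had at least 1 CPM in every library, and 4 of those 7 fell. Their median log2 fold change was −1.33, where all tested genes had a median of 0.0032. In bulk RNA, fewer cells of a type and less RNA per cell cannot be told apart.

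**Figure D1:**
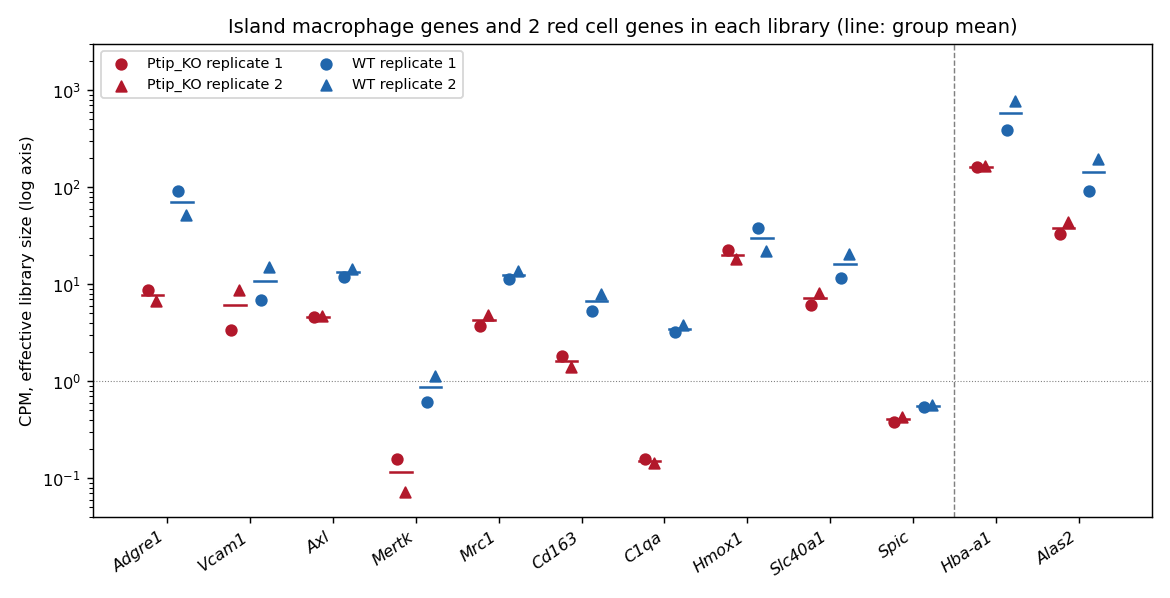
CPM of the 10 island macrophage genes and of the red cell genes Hba-a1 and Alas2 in each library on a log axis, with Ptip_KO in red, WT in blue, circles for replicate 1, triangles for replicate 2 and a line at each group mean of 2 libraries. The dotted line marks 1 CPM, and only Vcam1 and Hmox1 among the 10 genes show groups that overlap.

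Levels of different genes are compared per kilobase of exon. In Ptip_KO, Hmox1 was highest at 11.5 ± 1.69 CPM per kilobase (SD, n = 2), followed by Adgre1 at 2.39 ± 0.410. Axl (0.919), Slc40a1 (0.794), Vcam1 (0.684) and Mrc1 (0.664 CPM per kilobase) came next. Slc40a1 could not be separated from Vcam1, nor Vcam1 from Mrc1, by the range of their 2 libraries. Cd163 (0.295), C1qa (0.144), Spic (0.105) and Mertk (0.0264 CPM per kilobase) were the lowest, without overlap between neighbours. In WT, Adgre1 led at 21.95 ± 8.47 CPM per kilobase and overlapped Hmox1 at 17.3 ± 6.47 (SD, n = 2). C1qa was the third there at 3.36 ± 0.410 CPM per kilobase, ahead of Axl at 2.63 ± 0.346 without overlap, and Mrc1, Slc40a1, Vcam1 and Cd163 each overlapped the next of the 4. Mertk (0.202) and Spic (0.145 CPM per kilobase) were the lowest in WT and overlapped.

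Among the surface markers, Adgre1 fell most. It encodes F4/80, an adhesion G protein-coupled receptor of mouse macrophages that monocytes also carry at lower levels. Adgre1 (ENSMUSG00000004730.14) lies on the plus strand of chromosome 17 at 57358691 to 57483527 (mm10). It had 8.67 and 6.79 CPM in Ptip_KO, against 90.5 and 51.7 CPM in WT. Even the lower WT library stood 5.96-fold above the higher Ptip_KO library. By limma the log2 fold change was −3.00 ± 0.270 (SE; adjusted p = 0.00658), which placed Adgre1 at rank 13 of the 12357 tested genes, counted from the most negative.

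Vcam1, which encodes the adhesion molecule that binds the integrin pair of Itga4 and Itgb1 on erythroblasts, did not pass. Vcam1 (ENSMUSG00000027962.14) lies on the minus strand of chromosome 3 at 116109949 to 116129688. It had 3.35 and 8.78 CPM in Ptip_KO, against 6.86 and 14.95 CPM in WT. The higher Ptip_KO library was above the lower WT library, so the groups overlapped. Its log2 fold change came to −0.78, with a 95% interval of −1.96 to 0.40 and a limma adjusted p of 0.387. Without WT replicate 1 it was −1.29, and without WT replicate 2 it was −0.27. Of its ligand, Itga4 had 228 and 195 CPM in Ptip_KO, against 237 and 211 CPM in WT (limma adjusted p = 0.728), and Itgb1 had 249 and 232 CPM in Ptip_KO, against 273 and 251 CPM in WT (0.503).

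Of the receptors that recognise and clear dying cells, Axl fell and Mertk was too low to test. Axl is a receptor tyrosine kinase that reaches phosphatidylserine on dying cells through the bridging protein Gas6. Axl (ENSMUSG00000002602.16) lies on the minus strand of chromosome 7 at 25757273 to 25788705. It had 4.57 and 4.68 CPM in Ptip_KO, against 12.01 and 14.5 CPM in WT. The lower WT library was 2.56-fold above the higher Ptip_KO library. In limma the log2 fold change was −1.33 ± 0.138 (SE; adjusted p = 0.00992).

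Mertk, the related receptor through which macrophages take up apoptotic cells and, in erythroblastic islands, expelled nuclei, was near the limit of what these libraries show. Mertk (ENSMUSG00000014361.5) lies on the plus strand of chromosome 2 at 128698956 to 128802894. It had 0.158 and 0.0714 CPM in Ptip_KO (12 and 5 reads), against 0.611 and 1.14 CPM in WT (45 and 90 reads). Both Ptip_KO libraries were under both WT libraries, and the means differed 7.65-fold. Mertk was under the filter and was not tested, and with no filter its limma adjusted p was 0.0533. The third receptor of this family, Tyro3, reached at most 0.285 CPM in any library. Of the bridging proteins, Gas6 had 0.197 and 0.114 CPM in Ptip_KO, against 0.475 and 0.444 CPM in WT and was under the filter, while Pros1 had 49.0 and 44.8 CPM in Ptip_KO, against 39.2 and 32.4 CPM in WT (limma adjusted p = 0.134).

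The scavenger receptors Mrc1 and Cd163 fell together. Mrc1 encodes the mannose receptor CD206, which clears glycoproteins. Mrc1 (ENSMUSG00000026712.3) lies on the plus strand of chromosome 2 at 14229392 to 14332057. It had 3.66 and 4.80 CPM in Ptip_KO, against 11.4 and 13.7 CPM in WT. Replicates of a genotype lay close together and the groups did not overlap. Mrc1 had a log2 fold change of −1.38 ± 0.166 (SE; limma adjusted p = 0.0143).

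Cd163 encodes the receptor for complexes of haemoglobin and haptoglobin, and so is the entry point of free haemoglobin into the recycling route. Cd163 (ENSMUSG00000008845.9) lies on the plus strand of chromosome 6 at 124304656 to 124330527. It had 1.81 and 1.41 CPM in Ptip_KO (138 and 99 reads), against 5.29 and 7.99 CPM in WT (390 and 630 reads). The lower WT library was 2.92-fold above the higher Ptip_KO library. Cd163 had a log2 fold change of −1.53 ± 0.216 (SE; limma adjusted p = 0.0211).

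C1qa had the largest ratio of means. It encodes a chain of C1q, the complement component that macrophages secrete and that coats dying cells. C1qa (ENSMUSG00000036887.5) lies on the minus strand of chromosome 4 at 136895917 to 136898803, next to the genes of the other C1q chains, C1qc (136889804 to 136893065) and C1qb (136880129 to 136886187). It had 0.158 and 0.143 CPM in Ptip_KO (12 and 10 reads), against 3.19 and 3.79 CPM in WT (235 and 299 reads). The lower WT library was 20.2-fold above the higher Ptip_KO library. Its log2 fold change was −1.96 on the log2(CPM + 1) scale (limma adjusted p = 0.00658), a scale that shrinks changes under 1 CPM, and −4.52 by edgeR on recovered reads (adjusted p = 0.0121). The neighbouring chains also fell (limma adjusted p = 0.00931 for C1qb and 0.0114 for C1qc), and they too were tested only through WT. C1qb had 0.355 and 0.228 CPM in Ptip_KO, against 3.36 and 3.04 CPM in WT, and C1qc had 0.407 and 0.157 CPM in Ptip_KO, against 3.03 and 3.40 CPM in WT.

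Of the genes of the haem and iron route, neither Hmox1 nor Slc40a1 passed. Hmox1, which encodes the inducible haem oxygenase, had 22.3 and 18.1 CPM in Ptip_KO, against 38.3 and 22.2 CPM in WT. Only WT replicate 1 stood apart, and WT replicate 2 was at the level of Ptip_KO replicate 1. Hmox1 (ENSMUSG00000005413.8) lies on the plus strand of chromosome 8 at 75093621 to 75100589. Its log2 fold change was −0.52, with a 95% interval of −1.15 to 0.12 and a limma adjusted p of 0.292. Without WT replicate 2 the change was −0.90, and without WT replicate 1 it was −0.14.

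Slc40a1 encodes ferroportin, the only known iron exporter of mammalian cells. Slc40a1 (ENSMUSG00000025993.10) lies on the minus strand of chromosome 1 at 45908068 to 45926523. It had 6.12 and 8.16 CPM in Ptip_KO, against 11.7 and 20.7 CPM in WT. The groups did not overlap, but the WT libraries differed 1.77-fold between themselves. Slc40a1 had a log2 fold change of −1.04, with a 95% interval of −1.73 to −0.35, and did not pass (limma adjusted p = 0.0905). It passed by DESeq2 (adjusted p = 0.00464). Its log2 fold change was −1.43 without WT replicate 1 and −0.65 without WT replicate 2, each with a single WT library.

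Spic, the gene of SPI-C, was low in both genotypes. Spic (ENSMUSG00000004359.16) lies on the minus strand of chromosome 10 at 88674772 to 88685015. It had 0.381 and 0.428 CPM in Ptip_KO (29 and 30 reads), against 0.543 and 0.571 CPM in WT (40 and 45 reads). The groups did not overlap, but the means differed only 1.38-fold, and no library reached 1 CPM. Spic was under the filter, and with no filter its log2 fold change was −0.15 at a limma adjusted p of 0.502. Whether cells of the kind that depend on SPI-C were in the sort was not tested.

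**Figure D2:**
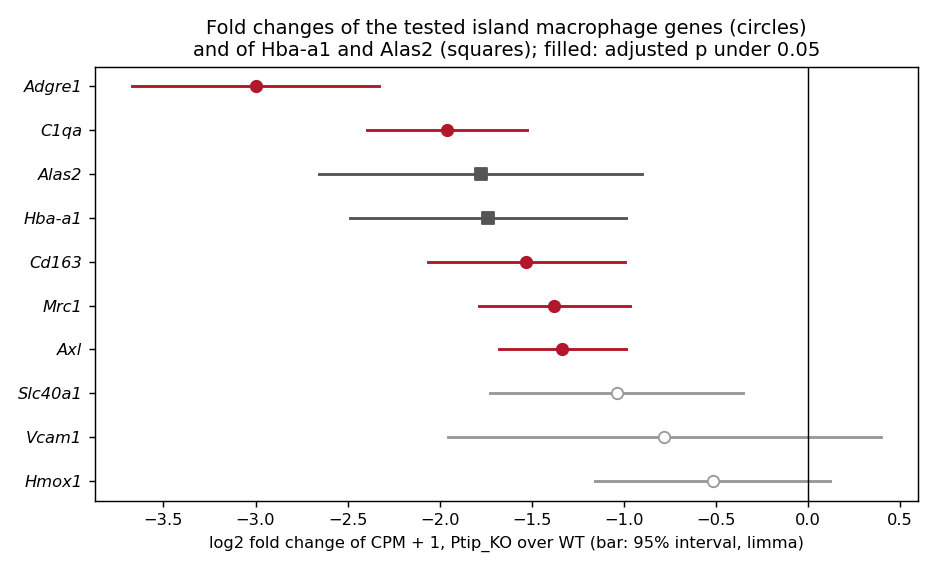
Log2 fold changes of CPM + 1 (Ptip_KO over WT) with 95% intervals from limma for the 8 tested island macrophage genes (circles) and for Hba-a1 and Alas2 (squares), filled where the adjusted p was under 0.05. Adgre1 at −3.00 is the most negative, and the intervals of Vcam1 and Hmox1 cross 0.

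The promoters of Mrc1, Axl and Cd163, which were called lower and had a promoter at hand, are shown beside that result. Their means were 2.97-fold, 2.86-fold and 4.12-fold lower in Ptip_KO. RefSeq promoters (GRCm38.p6, 250 bases before to 50 after the start) were at hand for 5 of the 10 genes, Mrc1, Axl, Cd163, Mertk and Spic. They were searched on both strands for GAGGAA, the core bound by PU.1 and its relative SPI-C, and for TGCTGA, part of the element that Maf proteins bind, and none of the 5 windows held both motifs. Each sequence is written along the strand of its gene, 5′ to 3′, and capitals mark a match to GAGGAA or its reverse complement. The windows are chr2:14229164-14229463 (plus strand) for Mrc1, chr7:25788684-25788983 (minus strand) for Axl and chr6:124304401-124304700 (plus strand) for Cd163.
Mrc1: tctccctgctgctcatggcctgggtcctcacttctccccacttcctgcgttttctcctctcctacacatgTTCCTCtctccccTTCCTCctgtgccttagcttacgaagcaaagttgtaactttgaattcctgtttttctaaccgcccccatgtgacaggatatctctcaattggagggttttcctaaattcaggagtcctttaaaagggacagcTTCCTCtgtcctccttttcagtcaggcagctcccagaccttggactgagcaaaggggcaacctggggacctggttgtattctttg
Axl: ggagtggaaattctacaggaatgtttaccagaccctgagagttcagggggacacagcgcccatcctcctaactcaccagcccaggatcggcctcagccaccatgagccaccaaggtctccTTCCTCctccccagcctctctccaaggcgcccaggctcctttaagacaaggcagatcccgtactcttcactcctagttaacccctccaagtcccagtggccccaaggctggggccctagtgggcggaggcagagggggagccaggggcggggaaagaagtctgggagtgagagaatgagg
Cd163: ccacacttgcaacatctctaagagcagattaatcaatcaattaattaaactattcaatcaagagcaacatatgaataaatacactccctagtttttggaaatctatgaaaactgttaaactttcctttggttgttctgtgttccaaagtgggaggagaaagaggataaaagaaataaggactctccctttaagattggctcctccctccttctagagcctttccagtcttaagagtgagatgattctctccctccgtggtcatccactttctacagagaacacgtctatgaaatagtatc
Mrc1 held 3 matches to GAGGAA and Axl held 1, while Cd163 held 0. Among all 32851 promoters of this length, 28.3% held GAGGAA and 19.5% held TGCTGA, and of the 5 promoters 2 held GAGGAA and 1, that of Spic, held TGCTGA. A match describes letters in this window and shows no binding.

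Set beside red cell genes, the 10 genes did not move as a block. Hba-a1, an alpha globin gene, had 160 and 167 CPM in Ptip_KO, against 390 and 770 CPM in WT, with a log2 fold change of −1.74 (limma adjusted p = 0.0335). Alas2, which starts haem synthesis in red cell precursors, had 33.1 and 43.7 CPM in Ptip_KO, against 90.6 and 195 CPM in WT, with a log2 fold change of −1.78 (limma adjusted p = 0.0473). Both genes were thus lower in Ptip_KO and also uneven within WT. Over the alternative fits, the log2 fold change ranged from −2.23 to −1.25 for Hba-a1 and from −2.33 to −1.23 for Alas2. Both calls were lost by edgeR (adjusted p = 0.0514 for Hba-a1 and 0.0671 for Alas2), with a common sum (limma adjusted p = 0.0681 and 0.0848) and with a robust prior (0.0656 and 0.112). That of Alas2 was also lost with a pseudocount of 5 (limma adjusted p = 0.0534), and its result moved without Ptip_KO replicate 1. Hba-a1 matches Hba-a2 at 99.8% of aligned positions, so reads of this pair may not be told apart, and Alas2 overlaps Apex2 on the opposite strand. Alas2 also lies on chromosome X. WT replicate 2, the higher WT library for both red cell genes, was the one that differed in Xist and Ddx3y.

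The CPM of each gene per 1000 CPM of Hba-a1 in the same library fell into 3 patterns. These ratios are descriptions without a test, since an exact permutation of 2 against 2 libraries cannot give a two-sided p under 0.333. The same ratios were not taken for all genes, so no background share stands beside the patterns. Adgre1, C1qa and Mertk were lower in Ptip_KO even relative to Hba-a1. Adgre1 came to 54.2 and 40.7 in Ptip_KO, against 232 and 67.2 in WT. C1qa came to 0.986 and 0.855 in Ptip_KO, against 8.17 and 4.92 in WT, and Mertk came to 0.986 and 0.428 in Ptip_KO, against 1.57 and 1.48 in WT. With 1 CPM added to both genes of a ratio, the mean log2 difference (Ptip_KO minus WT) turned from −1.23 to 1.00 for Mertk and moved from −2.79 to −0.22 for C1qa, while that of Adgre1 was −1.41 without and −1.26 with the added CPM.

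Cd163, Mrc1 and Axl kept about the same proportion to Hba-a1 in both genotypes, with overlapping groups. Cd163 came to 11.3 and 8.47 per 1000 CPM of Hba-a1 in Ptip_KO, against 13.6 and 10.4 in WT. Mrc1 came to 22.9 and 28.7 in Ptip_KO, against 29.3 and 17.8 in WT, and Axl to 28.6 and 28.0 in Ptip_KO, against 30.8 and 18.8 in WT. The mean log2 differences of these 3 ratios between Ptip_KO and WT were −0.28, 0.17 and 0.24. Each was smaller in size than the SD between replicates, pooled over both genotypes (0.286, 0.397 and 0.356). With 1 CPM added to both genes of a ratio, the differences were 0.21, 0.36 and 0.41. That of Axl was then over its pooled SD of 0.365.

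Slc40a1, Vcam1, Hmox1 and Spic were higher in Ptip_KO relative to Hba-a1. Slc40a1 came to 38.3 and 48.9 per 1000 CPM of Hba-a1 in Ptip_KO, against 30.0 and 26.9 in WT. Vcam1 came to 20.9 and 52.6 in Ptip_KO, against 17.6 and 19.4 in WT. Hmox1 came to 139 and 108 in Ptip_KO, against 98.1 and 28.9 in WT, and its groups overlapped when the ratio was taken to Alas2. Spic came to 2.38 and 2.57 in Ptip_KO, against 1.39 and 0.741 in WT, from 29 to 45 reads of Spic per library. Against Alas2, the other 9 genes kept the order they had against Hba-a1, with 3 genes lower in Ptip_KO, 3 higher and 4 overlapping.

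**Figure D3:**
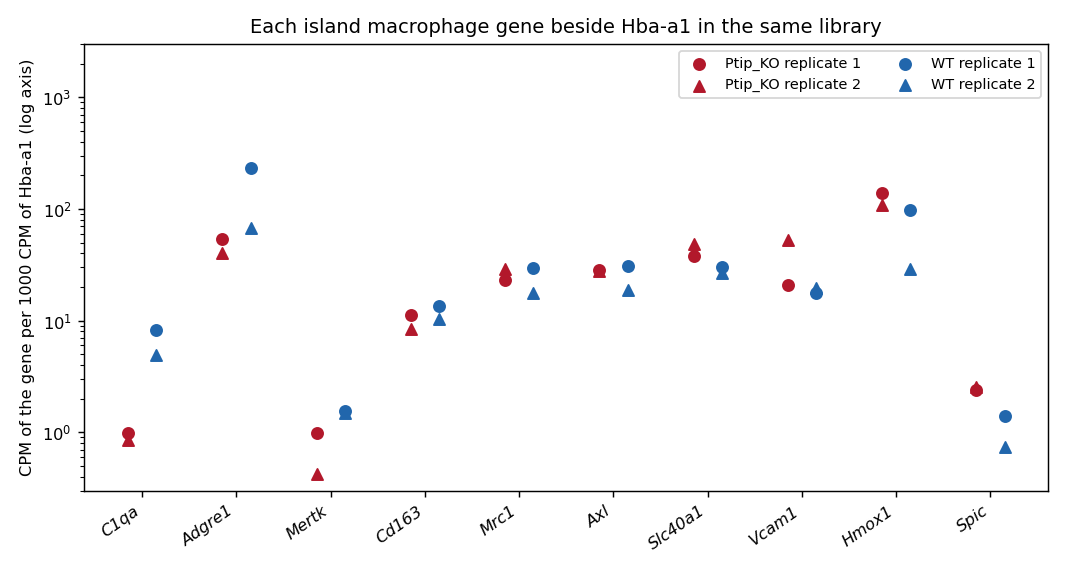
CPM of each island macrophage gene per 1000 CPM of Hba-a1 in the same library on a log axis, with Ptip_KO in red left of WT in blue, and circles and triangles for replicates 1 and 2. C1qa, Adgre1 and Mertk at the left are lower in both Ptip_KO libraries. With 1 CPM added, the mean log2 difference of Mertk turns to 1.00 and that of C1qa shrinks to −0.22. Slc40a1, Vcam1, Hmox1 and Spic at the right are higher, as a gene of unchanged CPM would be.

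Libraries of one genotype also differed, and the genes did so unequally. Hba-a1 was 1.04-fold and Alas2 1.32-fold higher in Ptip_KO replicate 2 than in replicate 1, and in WT the same ratios were 1.97 and 2.15. Slc40a1 had ratios of 1.33 in Ptip_KO and 1.77 in WT, the first near that of Alas2 and the second below those of both red cell genes. Vcam1 had ratios of 2.62 in Ptip_KO and 2.18 in WT, of which the first was above those of both red cell genes. Axl and Mrc1 had ratios of 1.02 and 1.31 in Ptip_KO and of 1.21 and 1.20 in WT. Adgre1 and Hmox1 ran the other way, with ratios of 0.784 and 0.812 in Ptip_KO and of 0.571 and 0.581 in WT. Thus the library with the most globin RNA was not the one with the most Adgre1 or Hmox1. Cd163, C1qa and Mertk had ratios of 0.779, 0.905 and 0.453 in Ptip_KO, but of 1.51, 1.19 and 1.87 in WT. Of the 41 erythroid genes in the table, 38 were higher in replicate 2 of Ptip_KO and 39 in replicate 2 of WT, where 41.6% and 42.6% of all tested genes were.

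**Figure D4:**
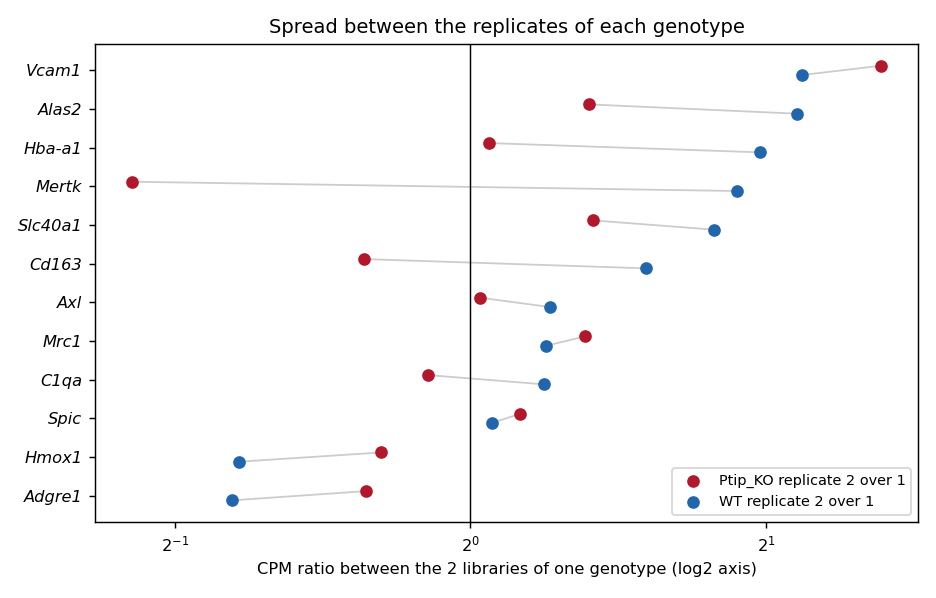
Ratio of CPM between replicate 2 and replicate 1 of the same genotype on a log2 axis for the 10 island macrophage genes, Hba-a1 and Alas2, with Ptip_KO in red above WT in blue. In WT, 8 of the 10 genes lie right of 1, with Vcam1, Mertk and Slc40a1 nearest to Alas2 and Hba-a1. Adgre1 and Hmox1 lie left of 1 in both genotypes.

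The genes whose pattern over the 4 libraries was nearest to that of a given gene were taken by the root mean square distance between centred log2(CPM + 1) values, among 9984 genes with a mean of at least 5 CPM. With 4 libraries from 2 genotypes this is a description only. Nearest to Adgre1 were the small GTPase gene Rem1 (distance 0.0665 on the log2 scale), the metalloprotease gene Adam19 (0.168) and the extracellular sulfatase gene Sulf2 (0.234). Rem1 had 1.21 and 0.785 CPM in Ptip_KO, against 17.9 and 10.1 CPM in WT. Nearest to Vcam1 were the kinase gene Plk3 (0.123), the transcription factor gene Ets1 (0.156) and the mast cell and basophil protease gene Prss34 (0.166), and none of these passed the test. Nearest to Slc40a1 were Slc25a37 (0.0785), which encodes the mitochondrial iron importer of red cell precursors, Dnajb2 (0.0821) and Ypel4 (0.0825). Slc25a37 had 39.0 and 54.4 CPM in Ptip_KO, against 82.2 and 131 CPM in WT.

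Some further tissue macrophage genes fell as well. Of 24 tested genes in this list, 7 fell and none rose, with a median log2 fold change of −0.62. Of all tested genes, 3.86% fell and 2.43% rose, which is the background for each list below as well. By limma, the 4 with the smallest p were C1qb, C1qc, the ficolin gene Fcna and the myeloid receptor gene Treml4. Fcna had 0.617 and 0.4995 CPM in Ptip_KO, against 2.92 and 2.89 CPM in WT (limma adjusted p = 0.0151). Treml4 had 1.33 and 1.03 CPM in Ptip_KO, against 4.11 and 3.46 CPM in WT (0.0244). The result of Treml4 moved without Ptip_KO replicate 2, a fit that gives no call. Of the 7, C1qb, C1qc, Fcna and the transcription factor gene Maf (0.736 and 0.742 CPM in Ptip_KO, against 2.56 and 2.60 CPM in WT) had under 1 CPM in both Ptip_KO libraries and were tested only through WT. Siglec1, which encodes the island marker CD169, had 1.09 and 1.61 CPM in Ptip_KO, against 1.89 and 2.19 CPM in WT and did not pass (limma adjusted p = 0.297). Cd68, a lysosomal protein gene of all macrophages and monocytes, had 199 and 165 CPM in Ptip_KO, against 229 and 121 CPM in WT (limma adjusted p = 0.846). The summed level of the 30 genes of the list in the table was 8431 and 6720 CPM in Ptip_KO, against 13128 and 7922 CPM in WT, most of it lysozyme (Lyz2). The median of the list was −0.54 without Ptip_KO replicate 2 and −0.76 without WT replicate 2.

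Most genes of a list for iron and haem handling, which also holds Cd163, did not pass. Of 25 tested genes, Cd163 included, 4 fell and 1 rose, with a median log2 fold change of −0.10. The 4 were Cd163, Blvrb, Tfrc and Fbxl5, the last a ubiquitin ligase subunit that senses iron (limma adjusted p = 0.0430). Blvrb, a biliverdin reductase that red cell precursors also use, had 24.9 and 28.0 CPM in Ptip_KO, against 43.9 and 47.2 CPM in WT (limma adjusted p = 0.0191, and 0.0660 without Ptip_KO replicate 1). Tfrc, the transferrin receptor through which red cell precursors take up iron, had 99.4 and 104 CPM in Ptip_KO, against 157 and 164 CPM in WT (0.0165, and 0.0795 and 0.0508 without Ptip_KO replicates 1 and 2). Cp, which encodes ceruloplasmin, the ferroxidase that works beside ferroportin, rose, with 11.03 and 11.2 CPM in Ptip_KO, against 0.950 and 1.83 CPM in WT (limma adjusted p = 0.00658). The iron store genes did not pass: Ftl1 had 860 and 775 CPM in Ptip_KO, against 870 and 745 CPM in WT (limma adjusted p = 0.946), and Fth1 had 301 and 324 CPM in Ptip_KO, against 384 and 317 CPM in WT (0.483). The haem transporter gene Slc48a1 (limma adjusted p = 0.491) and Bach1 (0.284), the haem-sensing repressor of Hmox1 and Spic, did not pass. The median of the list was −0.11 without Ptip_KO replicate 1, −0.098 without Ptip_KO replicate 2 and −0.16 without WT replicate 2.

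In the list for uptake of dying cells, 4 of 28 tested genes fell and 1 rose, with a median of −0.01. Mfge8, a bridge between phosphatidylserine and integrins, rose, with 71.0 and 62.6 CPM in Ptip_KO, against 33.2 and 31.4 CPM in WT (limma adjusted p = 0.00901). P2ry6, a receptor for nucleotides released by dying cells, fell, with 4.64 and 3.47 CPM in Ptip_KO, against 20.0 and 11.7 CPM in WT (0.0262). The other lower genes were C1qb, C1qc and the scavenger receptor gene Cd36. The median of the list was 0.11 without WT replicate 1 and −0.19 without WT replicate 2.

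In the list for contact with erythroblasts and their support, 2 of 13 tested genes fell and none rose, with a median of −0.12. They were Fn1, the fibronectin gene, with 188 and 86.0 CPM in Ptip_KO, against 3015 and 1195 CPM in WT (limma adjusted p = 0.0187, and 0.0724 with a robust prior), and Klf1, a transcription factor gene of erythroblasts, with 5.23 and 9.13 CPM in Ptip_KO, against 19.9 and 26.3 CPM in WT (0.0287, but 0.0612 with a common sum and 0.0542 by edgeR). Maea, the erythroblast macrophage protein gene, had 101 and 95.2 CPM in Ptip_KO, against 117 and 104 CPM in WT (0.375). Dnase2a, whose lysosomal nuclease digests the DNA of engulfed nuclei, had 95.6 and 83.9 CPM in Ptip_KO, against 71.6 and 76.9 CPM in WT (0.189). The counts of this list moved without WT replicate 1.

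Markers of other cell types moved with the genotype too, where 3.86% of all tested genes fell and 2.43% rose. Of 41 tested erythroid genes, 22 fell and none rose, with a median of −1.46, and their summed level was 1972 and 2413 CPM in Ptip_KO, against 3876 and 7103 CPM in WT. The count of lower erythroid genes was 11 by edgeR, beside 3.37% of all tested genes. It was 7 when libraries were rescaled to a common sum, beside 329 of all 12357 tested genes. Of 14 tested dendritic cell genes, 8 fell and 1 rose, with a median of −1.37 and sums of 301 and 289 CPM in Ptip_KO, against 556 and 436 CPM in WT. The lower ones included Id2, Itgax, Zbtb46 and Irf4, and Itgax encodes CD11c. Tcf4 rose, with 105 and 104 CPM in Ptip_KO, against 55.5 and 64.4 CPM in WT (limma adjusted p = 0.0164). Clec9a, Siglech, Bst2, Cd209a and Cd74 did not pass (limma adjusted p = 0.296, 0.721, 0.168, 0.232 and 0.0619). The 14 neutrophil genes had sums of 1635 and 1219 CPM in Ptip_KO, against 2558 and 4691 CPM in WT, with a median of −1.46, and Padi4 passed (limma adjusted p = 0.00638). How many genes of this list fell moved with each library left out. Of 24 monocyte and progenitor genes, 3 fell (Kit, Flt3 and Cd14) and none rose, with a median of −0.16 and sums of 20219 and 18986 CPM in Ptip_KO, against 21154 and 21867 CPM in WT. Cd14 lost the call with a common sum (limma adjusted p = 0.0612). The counts of this list moved when either WT library was left out. Of the markers of stroma and endothelium, other sites of Vcam1, 9 of the 11 in the table stayed under 1 CPM everywhere. Pecam1 and Pdgfrb were tested and did not pass, although the result of 1 of them moved without WT replicate 2. B and T cell genes, of which 3 of 14 were tested, summed to 57.6 and 55.1 CPM in Ptip_KO, against 33.0 and 52.9 CPM in WT, most of it Cd79b. Cd79b rose but lost the call with a common sum (limma adjusted p = 0.0718) and by edgeR (0.0663), and its result moved without either Ptip_KO library. Of 6 tested osteoclast genes, Acp5 and Car2 fell, and Car2 is also in the erythroid list. Neither passed with a common sum (limma adjusted p = 0.0507 and 0.0505), and the result of Acp5 also moved without Ptip_KO replicate 1. The other tested genes did not pass, with log2 fold changes of −1.71 (Mmp9), 0.25 (Nfatc1), 0.07 (Tnfrsf11a) and 0.0068 (Itgb3). The osteoclast counts moved without WT replicate 1. The part of these cell types in the values of the 10 genes was not tested.

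**Figure D5:**
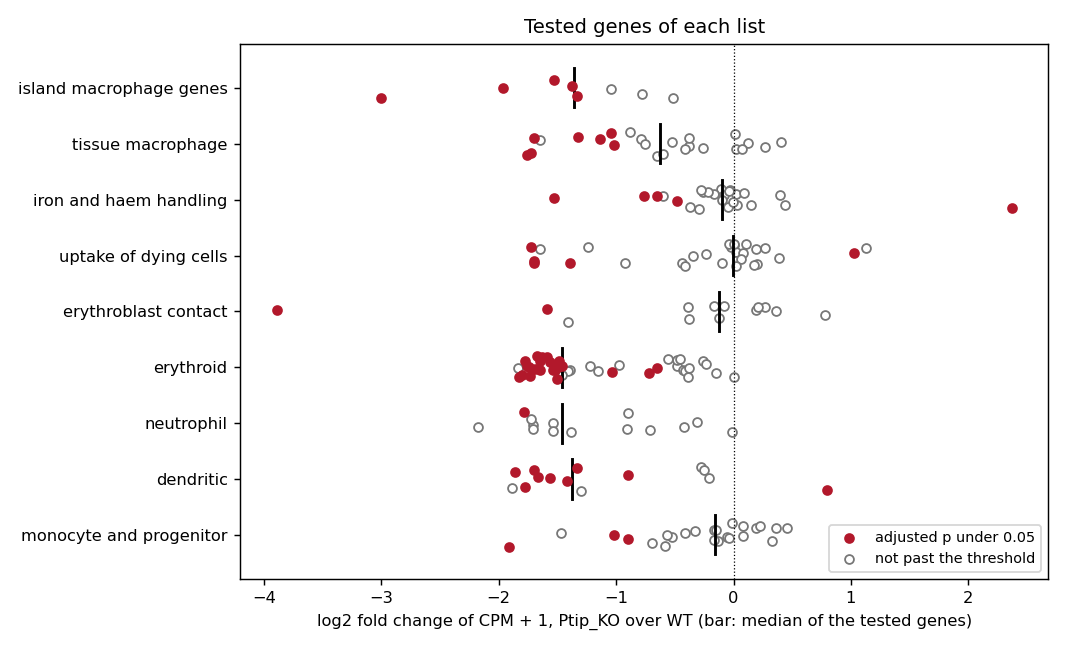
Log2 fold change of CPM + 1 (Ptip_KO over WT) of each tested gene in 9 lists, red where the limma adjusted p was under 0.05 and open where not, with a bar at the median of the list. The medians are −1.36 for the 8 tested island macrophage genes, −0.62 for tissue macrophage, −1.46 for erythroid and −0.16 for monocyte and progenitor genes.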

How the data were processed

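The authors deposited a normalized signal for each gene, edgeR CPM scaled to an effective library size by the name they gave the table. TopHat2 2.0.10, HTSeq 0.6.0, edgeR 3.8.6 and mm10 are listed without roles, per the submitters' processing notes. The kit was stranded, per the labels, and the strand setting of the counting is not given in the sources used here. Every value was a whole multiple of 1 read within 0.01 read (100% of 18276 values per library), so reads were recovered. The limit for a gene with 0 reads (3 reads) came to 0.0380 to 0.0428 CPM, for counting error only. Positions and exon lengths are from GENCODE M21 (GRCm38), and 18249 genes had a symbol.

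Fits used limma 3.58.1 in R 4.3.3 with a trended prior, 2-sided, genotype as the only term. Alternatives were edgeR 4.0.16 and DESeq2 1.42.0 on recovered reads, other pseudocounts, filters, scalings, a robust prior, the replicate number as a term and each library left out. The fits were tested on simulated data. The simulated counts held neither a sex difference nor a shift shared by replicates of the same number, so the fits were not tested under these. The genes, lists and tests were chosen with earlier results of these data known. Named genes were the 10, Paxip1, Hba-a1, Alas2, the genes of the sort, the 3 genes nearest to each of Adgre1, Vcam1 and Slc40a1, and up to 4 genes per list by smallest p. Other list genes, Xist and Ddx3y were named after their values were seen. Transcripts were compared with BLAST 2.17.0 for close copies (95% identity, 50% of the shorter length, 200 bases).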

Additional observations from a re-analysis of the deposited data

How the results depend on the processing

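Adgre1, C1qa, Axl, Mrc1 and Cd163 kept their direction under every alternative in which they were tested. These were 14 for each and 13 for C1qa, which the filter at 5 CPM removed. They kept their side of the threshold in the alternatives with all libraries, and fits with a library left out give no calls. C1qa was tested only through its level in WT, so that it kept its call is no support. The highest adjusted p of these 5 genes in fits with all libraries was 0.0448, for Cd163 with a common sum (limma). The number of the 10 genes past the threshold lay between 4 and 7, and between 5 and 7 when each library was left out. On the log2 scale with a pseudocount of 5, the changes of Cd163 and C1qa were −0.81 and −0.72. Over all genes, 777 passed in the reported fit, 1906 by DESeq2, 1721 with the replicate number as a block, and 452 to 1620 when each library was left out. With this replicate block, Vcam1 (limma adjusted p = 0.0256) and Slc40a1 (0.0229) also passed. The differences between replicates 1 and 2 correlated with r = 0.332 across genes between the genotypes. No label ties libraries of the same number to a shared animal, litter or day, and the deposited column of WT replicate 2 carries the number 3, so whether the numbers pair the libraries is not known. For the nearest genes to Vcam1, the log2 fold change of Prss34 turned to 0.21 without Ptip_KO replicate 1 and to 0.034 without WT replicate 2, in a range of −1.20 to 0.21 over the libraries left out. With 1 CPM added before taking ratios, the log2 ratio (Ptip_KO minus WT) to Hba-a1 and to Alas2 moved to 0.21 and 0.25 for Cd163, to −0.22 and −0.18 for C1qa, and to 1.00 and 1.04 for Mertk. Depth limits Spic and Mertk, with 5 to 90 reads per library.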
